A study of Mus musculus with 6 samples.

Results

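Neurotransmitter receptor genes were followed in embryonic mouse kidneys that had been treated in culture with Scriptaid or with Nullscript. They were taken from the gene names of the array by a fixed set of name patterns, namely the AMPA, kainate and NMDA subunits (Gria, Grik, Grin), the metabotropic glutamate receptors (Grm), the GABA-A subunits (Gabr), the glycine subunits (Glra, Glrb), the nicotinic and muscarinic acetylcholine receptors (Chrn, Chrm), and the serotonin (Htr), dopamine (Drd) and adrenergic (Adra, Adrb) receptors. The patterns took 97 of 27673 gene names on the array, with 154 probes on 163 spots. One of the 97, Drd1ip, was taken by its name only. Its current symbol is Caly, and it encodes a protein that binds dopamine receptors, not a receptor.

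The kidneys came from CD1 mouse embryos at E13.5 and were grown as explants on filters. One group received Scriptaid, a hydroxamic acid that inhibits histone deacetylases, at 2.0 µg/ml for 6 hours, and the other received Nullscript, an inactive structural relative, at 2.0 µg/ml for 6 hours. Paired kidneys received the different drugs, so each replicate set Scriptaid against Nullscript within pairs. RNA of both treatments was hybridised together to 2-colour arrays, with 3 biological replicates and, for each, a second array on which the dyes were swapped, 6 arrays in all. How many embryos were pooled for a replicate is not stated by the labels. Whole explants were used, so the RNA of all their cell types was measured together.

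Neurotransmitter receptors are of 2 kinds. Ligand-gated channels are assembled from several subunits and open within the membrane when glutamate, GABA, glycine, acetylcholine or, for some, serotonin binds. G protein-coupled receptors are single proteins that act through G proteins on adenylyl cyclase, phospholipase C or ion channels. Most of these genes are known from neurons, but the adrenergic receptors also serve blood vessels and tubules of the kidney, where sympathetic nerves act. Many neuronal genes are held down outside neurons by repressor complexes that contain histone deacetylases.

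Of 45018 spots per array, 43379 were not control spots, and 91.5% to 96.5% of these were well above background, depending on the channel. The log2 ratios correlated between 0.73 and 0.94 across the 6 arrays. All ratios are given as Scriptaid-labelled over Nullscript-labelled signal. Genes known from other cells for their response to inhibitors of histone deacetylases differed in the direction opposite to the drug labels. H1f0 had a log2 ratio of -1.0, Gsn of -1.04, Txnip of -1.01 and Cdkn1a of -0.91, although each is known to rise with such inhibitors, and Ccnd1 (1.90) and Myc (1.71), known to fall, had positive ratios. All 10 genes listed as rising in other cells were lower in the channel labelled Scriptaid, led by H1f2 (-1.72), Cdkn2b (-1.43) and Mt1 (-1.20). Of 6 listed as falling 5 were higher, among them Tyms (0.73) and Ccnb1 (0.59). These values are from the brightest probes. Other probes had 0.0056 for Mt1, -0.023 to 0.74 for Tyms and 0.30 to 1.76 for Myc. Those of H1f0 had -0.82 to -0.80, of Txnip -0.80 and of Ccnb1 0.54 to 0.74. Eya1 (1.64) and Wt1 (0.97), which the study is known to discuss as lowered by the inhibitor, were higher in the channel labelled Scriptaid, so the signs given here oppose the study's. Another probe of Eya1 had 0.48. The direction is therefore not settled, "higher" and "lower" below always refer to the channel labelled Scriptaid, and every sign would turn if the drug names were exchanged.

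Most receptor genes differed little between the channels. A small set of 8 differed by at least 1.5-fold, of which 4 were subunits of glutamate-gated channels. Of the 97 genes, 95 were tested, each by its brightest probe, with limma on the 3 replicates and Benjamini-Hochberg adjustment over all 26490 genes. The other two, Chrna3 and Drd1a, were not well above background on enough arrays. At an adjusted p under 0.05, 10 receptor genes were higher, 18 were lower and 67 did not pass. This made 29.5% of the receptor genes, where 46.2% of all genes passed. Higher genes made up 10.5% of the receptor genes and 22.5% of all genes, and lower genes 18.9% and 23.7%. With arrays centred on their median instead of loess, 9 receptor genes were higher and 27 lower, where 23.6% and 30.4% of all genes were. Replicates 1 and 2 shared a slide. Without replicate 3 the counts were 10 higher and 8 lower (16.3% and 15.1% of all genes), and with the slide as a block 10 higher and 10 lower (18.9% and 18.6% of all genes).

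The median absolute log2 ratio was 0.055 over the 95 receptor genes and 0.104 over all genes. These sets were not matched for brightness. The background correction pulls dim ratios towards 0, and its part in this difference was not tested. Of the 95, 63 had an absolute log2 ratio under 0.1, which is 66.3% against 49.1% of all genes. A difference of at least 1.5-fold was seen for 8 receptor genes (8.42%) and for 10.9% of all genes. Only Chrna5 exceeded 2-fold among the receptor genes. In 89 of the 95 the probe was well above background on all 6 arrays in both channels, none entered the test through one drug alone, and none was saturated. RNA of whole explants cannot tell fewer cells of a type from less RNA per cell.

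**Figure D1:**
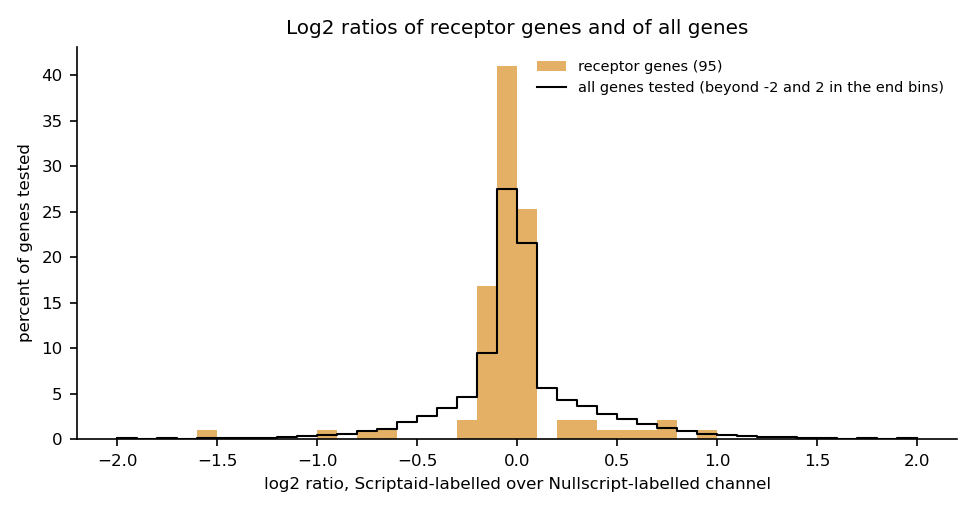
Share of genes (percent) by log2 ratio of Scriptaid-labelled over Nullscript-labelled signal, in bins of equal width, for the 95 receptor genes tested (bars) and all 26490 genes tested (line). The receptor genes crowd around 0, with 66.3% of them under 0.1 in absolute value against 49.1% of all genes.

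The 28 receptor genes that passed had the same sign in all 3 replicates, and 27 of them on all 6 arrays. The exception was Adra2b (-0.11 ± 0.01, SD, n = 3), with 0.02 on the replicate 1 array that had Scriptaid in Cy3. The 10 higher genes were Gria1, Gria3, Gria4, Grik4, Grik5, Grm3, Chrna4, Chrna9, Adra1b and Adra2a. Among the 18 lower genes were Gria2, Grik1, Grin2c, Grin3a, Grin3b, Grm8, Gabra4, Gabrb1, Gabre, Gabrg1, Chrna5, Chrnb2, Htr5b, Drd4, Adra1d and Adra2b. Ligand-gated channel genes gave 7 higher and 12 lower of 56 tested, and G protein-coupled receptor genes 3 higher and 6 lower of 38. Among all genes, 22.5% were higher and 23.7% lower, and these shares are to be set beside the family counts below. No share of all genes is given for counts at an unadjusted p, so those counts have no such comparison. Of the 28, 20 were under 1.5-fold.

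**Figure D2:**
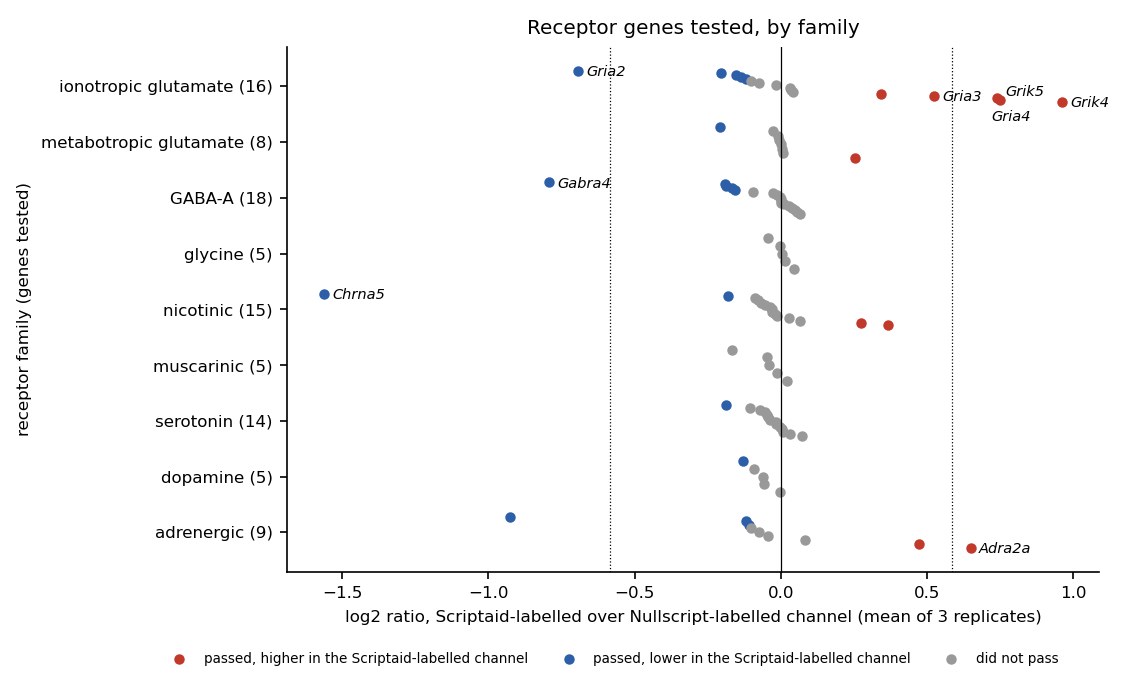
Log2 ratios (mean of 3 replicates) of the 95 receptor genes tested, by family, with genes that passed the test in colour and dotted lines at 1.5-fold. Not every point past 0.5 is named. Chrna5 lies farthest from 0 at -1.56, and no gene of the glycine or muscarinic families passed.

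Of the genes that passed with at least 1.5-fold, 7 are described in full, namely Chrna5, Grik4, Gabra4, Gria4, Grik5, Gria2 and Adra2a. Their sequences just upstream of the transcription start are shown because histone deacetylases act on chromatin, promoters included, and so that genes with opposite signs can be set side by side. RefSeq promoter windows (build GRCm38.p6) were matched by symbol for 71 of the 97 genes. The 250 bases before the start are printed 5′ to 3′ on the gene's strand, in lower case, with each GC box (GGGCGG, or CCGCCC on the other strand, the short sequence bound by Sp1) in capitals. Chrna5 has a pair of windows, and both are given.
Gria2 (chr3:80802836-80803085, minus strand): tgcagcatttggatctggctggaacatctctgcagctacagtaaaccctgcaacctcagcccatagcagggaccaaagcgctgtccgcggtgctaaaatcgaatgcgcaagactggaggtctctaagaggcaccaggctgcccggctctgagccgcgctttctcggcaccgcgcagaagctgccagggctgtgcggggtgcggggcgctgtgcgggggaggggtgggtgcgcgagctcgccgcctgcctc
Gria4 (chr9:4796235-4796484, minus strand): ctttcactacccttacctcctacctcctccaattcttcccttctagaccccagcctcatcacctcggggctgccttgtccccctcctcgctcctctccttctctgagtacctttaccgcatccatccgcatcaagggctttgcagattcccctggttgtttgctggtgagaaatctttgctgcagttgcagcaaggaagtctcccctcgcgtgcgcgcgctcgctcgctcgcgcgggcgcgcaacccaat
Grik4 (chr9:42944372-42944621, minus strand): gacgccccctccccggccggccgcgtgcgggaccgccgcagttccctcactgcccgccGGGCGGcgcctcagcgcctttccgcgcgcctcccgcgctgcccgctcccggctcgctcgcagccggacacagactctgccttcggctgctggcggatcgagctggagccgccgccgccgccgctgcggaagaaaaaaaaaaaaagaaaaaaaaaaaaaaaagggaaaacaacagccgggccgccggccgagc
Grik5 (chr7:25072370-25072619, minus strand): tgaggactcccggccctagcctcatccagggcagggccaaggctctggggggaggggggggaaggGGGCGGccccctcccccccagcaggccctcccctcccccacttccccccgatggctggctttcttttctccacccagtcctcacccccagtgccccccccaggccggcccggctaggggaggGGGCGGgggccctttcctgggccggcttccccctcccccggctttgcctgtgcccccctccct
Gabra4 (chr5:71658309-71658558, minus strand): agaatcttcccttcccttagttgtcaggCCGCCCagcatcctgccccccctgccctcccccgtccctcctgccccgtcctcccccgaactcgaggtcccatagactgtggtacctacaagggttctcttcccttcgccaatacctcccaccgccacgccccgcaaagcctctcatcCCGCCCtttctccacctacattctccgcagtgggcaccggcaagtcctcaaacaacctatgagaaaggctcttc
Chrna5 upstream window (chr9:54980630-54980879, plus strand): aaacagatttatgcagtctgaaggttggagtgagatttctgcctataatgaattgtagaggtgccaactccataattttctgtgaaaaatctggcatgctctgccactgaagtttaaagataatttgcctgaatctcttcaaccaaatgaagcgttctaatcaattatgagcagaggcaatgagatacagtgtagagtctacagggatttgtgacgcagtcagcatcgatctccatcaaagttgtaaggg
Chrna5 downstream window (chr9:54981238-54981487, plus strand): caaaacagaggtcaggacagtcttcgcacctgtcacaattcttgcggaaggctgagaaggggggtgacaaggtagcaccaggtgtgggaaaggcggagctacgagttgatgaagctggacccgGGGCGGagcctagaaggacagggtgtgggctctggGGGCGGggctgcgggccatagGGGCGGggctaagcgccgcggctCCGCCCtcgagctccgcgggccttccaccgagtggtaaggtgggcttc
Adra2a (chr19:54045009-54045258, plus strand): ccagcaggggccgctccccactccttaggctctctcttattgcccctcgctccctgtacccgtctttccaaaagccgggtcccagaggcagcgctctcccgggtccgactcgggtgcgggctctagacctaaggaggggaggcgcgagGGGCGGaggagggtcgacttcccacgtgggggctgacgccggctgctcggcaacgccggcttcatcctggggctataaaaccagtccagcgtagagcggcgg

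The printed promoters do not sort by direction. Of the higher genes, Grik4 holds 1 GC box, Grik5 2 and Adra2a 1, while Gria4 holds none. Of the lower genes, Gabra4 holds 2 and Gria2 none, and the windows of Chrna5 hold 0 and 4. CpG pairs number 36 in the Grik4 sequence, 22 in Adra2a, 19 in Gria2, 16 in Gria4, 12 in Gabra4 and 8 in Grik5, and 3 and 17 in those of Chrna5. Over the whole 300-base windows, which run 50 bases past the start, 57.7% of 71 receptor genes had at least 1 GC box, against 38.2% of all 27025 genes in the table. Among receptor genes the share was 6 of 8 for higher genes, 8 of 12 for lower genes and 25 of 49 for genes that did not pass. The median GC content of the windows was 58.2% for receptor genes and 52.8% for all genes.

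AMPA receptors carry most fast excitatory transmission and are built from 4 subunits, all of which passed. Gria4 had levels of 9.61, 9.42 and 9.38 in the channel labelled Scriptaid in replicates 1, 2 and 3, against 8.93, 8.63 and 8.61 in the channel labelled Nullscript (log2 intensity). The channels did not overlap. Its log2 ratio was 0.75 ± 0.06 (SD, n = 3), or 1.68-fold, with an adjusted p of 0.000175. Gria3 had 9.54, 9.70 and 9.51 in the channel labelled Scriptaid, against 8.82, 9.41 and 8.95 in the channel labelled Nullscript. Again the channels did not overlap, with the narrowest gap in replicate 2, and the log2 ratio was 0.52 ± 0.22 (adjusted p = 0.00602). Gria1 had log2 ratios of 0.44, 0.29 and 0.30 in the 3 replicates.

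Gria2, the subunit that after RNA editing makes AMPA receptors nearly impermeable to calcium, lay on the other side. Its levels were 7.37, 7.21 and 7.60 in the channel labelled Scriptaid, against 8.04, 7.93 and 8.29 in the channel labelled Nullscript. The lowest Nullscript-labelled value was above the highest Scriptaid-labelled one. The log2 ratio was -0.69 ± 0.02 (SD, n = 3), 1.62-fold lower, with an adjusted p of 0.000155. This value belongs to one probe: the other two probes of Gria2 had -0.01 and -0.05 and did not pass. Averaged over its probes, Gria2 had -0.25. The other probes of Gria1 and Gria3 passed in the same direction (0.25 for Gria1, 0.31 and 0.39 for Gria3), and those of Gria4 had 0.10, 0.54 and 0.95, of which the last 2 passed.

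Kainate receptors are assembled from core subunits (Grik1, Grik2 and Grik3) and from the high-affinity subunits Grik4 and Grik5, which need a core subunit to form a channel. Both high-affinity subunits were higher. Grik4 had 11.57, 11.57 and 11.20 in the channel labelled Scriptaid, against 10.51, 10.66 and 10.28 in the channel labelled Nullscript. The gap was close to 1 log2 unit in every replicate, and the ratio was 0.96 ± 0.09 (SD, n = 3), or 1.95-fold, with an adjusted p of 0.000166. Grik5 had 11.16, 11.12 and 11.09 in the channel labelled Scriptaid, against 10.28, 10.54 and 10.34 in the channel labelled Nullscript. Its log2 ratio was 0.74 ± 0.16, or 1.67-fold (adjusted p = 0.000782). Of the core subunits, Grik1 was lower (-0.20 ± 0.04), with a second probe at -0.02 that did not pass, while Grik2 (0.034) and Grik3 (0.031) did not pass.

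NMDA receptors, which need the subunit Grin1, gave smaller values. Of 7 genes 0 were higher (by limma, also 0 at an unadjusted p under 0.05) and 3 were lower, where 22.5% and 23.7% of all genes were. The lower ones were Grin3b (-0.15 ± 0.04), Grin2c (-0.14 ± 0.01) and Grin3a (-0.12 ± 0.04). The second probe of Grin3a had 0.34 and passed in the opposite direction, so the direction of Grin3a depends on the probe. Grin1 had -0.016, and Grin2a, Grin2b and Grin2d lay between -0.10 and 0.040 without passing.

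**Figure D3:**
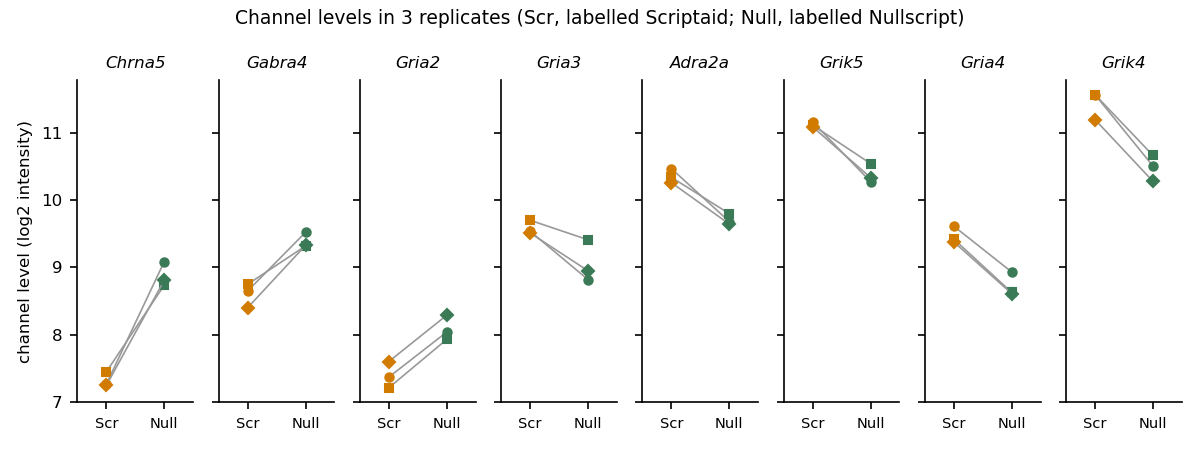
Channel levels (log2 intensity) of 8 receptor genes that passed with an absolute log2 ratio of at least 0.5, in the channel labelled Scriptaid (left) and labelled Nullscript (right), with lines joining the values of a replicate. In each of the 8 genes all 3 lines run the same way.

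Metabotropic glutamate receptors act through G proteins. Of 8 genes, 1 was higher and 1 was lower. Grm3, a receptor coupled to inhibitory G proteins, had log2 ratios of 0.28, 0.19 and 0.29 in replicates 1, 2 and 3 (mean 0.25 ± 0.06, adjusted p = 0.0034). Grm8, also coupled to inhibitory G proteins, had -0.19, -0.24 and -0.19 (mean -0.21 ± 0.03, adjusted p = 0.00376). For both genes the levels of the channels overlapped across replicates, while the ratio within each replicate kept its sign. The remaining 6 genes had log2 ratios between -0.028 and 0.0056.

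GABA-A receptors are chloride channels that carry fast inhibition. Of 18 subunit genes 0 were higher and 5 were lower by limma, where 22.5% and 23.7% of all genes were. At an unadjusted p under 0.05 the counts were 0 and 6, with no share of all genes given here. Gabra4, an alpha subunit known from extrasynaptic receptors of the brain, had 8.65, 8.75 and 8.40 in the channel labelled Scriptaid, against 9.52, 9.32 and 9.33 in the channel labelled Nullscript. The channels did not overlap, and the log2 ratio was -0.79 ± 0.19 (SD, n = 3), 1.73-fold lower, with an adjusted p of 0.00106. Smaller ratios were seen in Gabre at -0.19 ± 0.03, Gabrb1 at -0.19 ± 0.06 and Gabrg1 at -0.16 ± 0.02. The other probe of Gabre had -0.02 and did not pass.

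Gabrg1 was printed on 10 spots of each array, which gives the technical spread of a small ratio. Its mean over the 10 spots lay between -0.21 and -0.12 on the 6 arrays, with an SD over spots between 0.042 and 0.15. GABA-A genes lie in clusters, of which 2 are described here. On chromosome 5, Gabrg1, Gabra4 and Gabrb1 were lower, while Gabra2 between them had 0.029 and did not pass. On the X chromosome Gabre was lower, while Gabra3 and Gabrq (0.0096 and -0.00049) did not pass.

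Glycine receptors are the other inhibitory chloride channels. None of the 5 genes passed in limma, 0 of them also at an unadjusted p under 0.05, and their log2 ratios lay between -0.043 and 0.044. Glra2, the alpha subunit typical of embryonic neurons, had 10.08, 10.72 and 10.21 in the channel labelled Scriptaid, against 10.17, 10.77 and 10.20 in the channel labelled Nullscript, with a ratio of -0.043 ± 0.048 (adjusted p = 0.352). The channels overlapped.

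Nicotinic receptors are acetylcholine-gated channels of ganglia, brain and muscle. Chrna5, with 1 probe on the array, gave the widest difference of the 95 receptor genes. It encodes an accessory subunit that joins channels formed by other subunits. Its levels were 7.26, 7.44 and 7.24 in the channel labelled Scriptaid, against 9.08, 8.74 and 8.81 in the channel labelled Nullscript. All 3 Scriptaid-labelled values lay over 1 log2 unit below the Nullscript-labelled ones. The log2 ratio was -1.56 ± 0.27 (SD, n = 3), 2.95-fold lower, with an adjusted p of 0.000363. On the array maker's processed signals it was -2.07. Array by array it ranged between -1.83 and -1.22.

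Chrna5 lies next to Chrna3 and Chrnb4, whose subunits it joins in autonomic ganglia. Neither probe of Chrna3 was well above background on enough arrays, and Chrnb4 had -0.014 and did not pass. Chrna4 and Chrnb2, which form the main nicotinic receptor of the brain, differed in sign. Chrna4 had log2 ratios of 0.50, 0.28 and 0.31 (mean 0.37 ± 0.12, adjusted p = 0.00357), and Chrnb2 had -0.21, -0.16 and -0.17 (mean -0.18 ± 0.03). A second probe of Chrna4 had 0.02 and did not pass, and with the maker's processed signals that probe was the brighter one and gave 0.054. Chrna9, known from hair cells, was higher (0.27 ± 0.06), with 0.098 on its other probe. Its size depended on the background correction and scaling: it was 0.70 on processed signals, 0.53 with offset 0 and, no longer passing, 0.11 with median centring. None of the 5 muscle subunits (Chrna1, Chrnb1, Chrnd, Chrne and Chrng) passed in limma, 0 also at an unadjusted p under 0.05, with log2 ratios between -0.079 and 0.067.

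Muscarinic receptors are the G protein-coupled receptors for acetylcholine, and none of the 5 genes passed in limma, while 1 was lower at an unadjusted p under 0.05. Chrm1 was nearest to the threshold (-0.17 ± 0.12, adjusted p = 0.0539). Chrm4, which couples to inhibitory G proteins, had 10.01, 10.20 and 10.15 in the channel labelled Scriptaid, against 10.07, 10.21 and 10.20 in the channel labelled Nullscript. The channels overlapped, and the ratio was -0.042 ± 0.030 (adjusted p = 0.315). A second probe of Chrm4 was lower (-0.12).

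Serotonin and dopamine receptors gave 1 lower gene each. Of 14 serotonin receptor genes, only Htr5b passed, with log2 ratios of -0.27, -0.07 and -0.23 in replicates 1, 2 and 3 (mean -0.19 ± 0.10, adjusted p = 0.0262). The remaining 13 lay between -0.11 and 0.073. On the maker's processed signals Htr3b, a channel subunit at -0.11 here, had -0.57 and passed (adjusted p = 0.0178). Among 5 dopamine receptor names tested, Drd4, a receptor coupled to inhibitory G proteins, had -0.10, -0.11 and -0.18 (mean -0.13 ± 0.04, adjusted p = 0.0234). Drd2, Drd3 and Drd5 lay between -0.092 and -0.0036 and did not pass, and Drd1ip had -0.062.

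Adrenergic receptors bind noradrenaline and adrenaline. Of 9 genes, 2 were higher and 3 were lower. Adra2a, coupled to inhibitory G proteins, had 10.47, 10.34 and 10.26 in the channel labelled Scriptaid, against 9.68, 9.80 and 9.64 in the channel labelled Nullscript. The channels did not overlap, and the log2 ratio was 0.65 ± 0.13 (SD, n = 3; adjusted p = 0.000689), or 1.57-fold.

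One other probe of Adra2a agreed in direction (0.81, passed) and one had -0.04 and did not pass. Adra1b, which acts through phospholipase C, had log2 ratios of 0.42, 0.56 and 0.43 (mean 0.47 ± 0.08), and its other probe had 0.03. Adra1d (-0.12 ± 0.06, adjusted p = 0.0497) and Adra2b (-0.11 ± 0.01, adjusted p = 0.0266) were lower by small amounts. Adrb1, the main beta receptor of the heart, did not pass by its brightest probe (-0.074) but had -0.87 on its other probe, which passed.

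**Figure D4:**
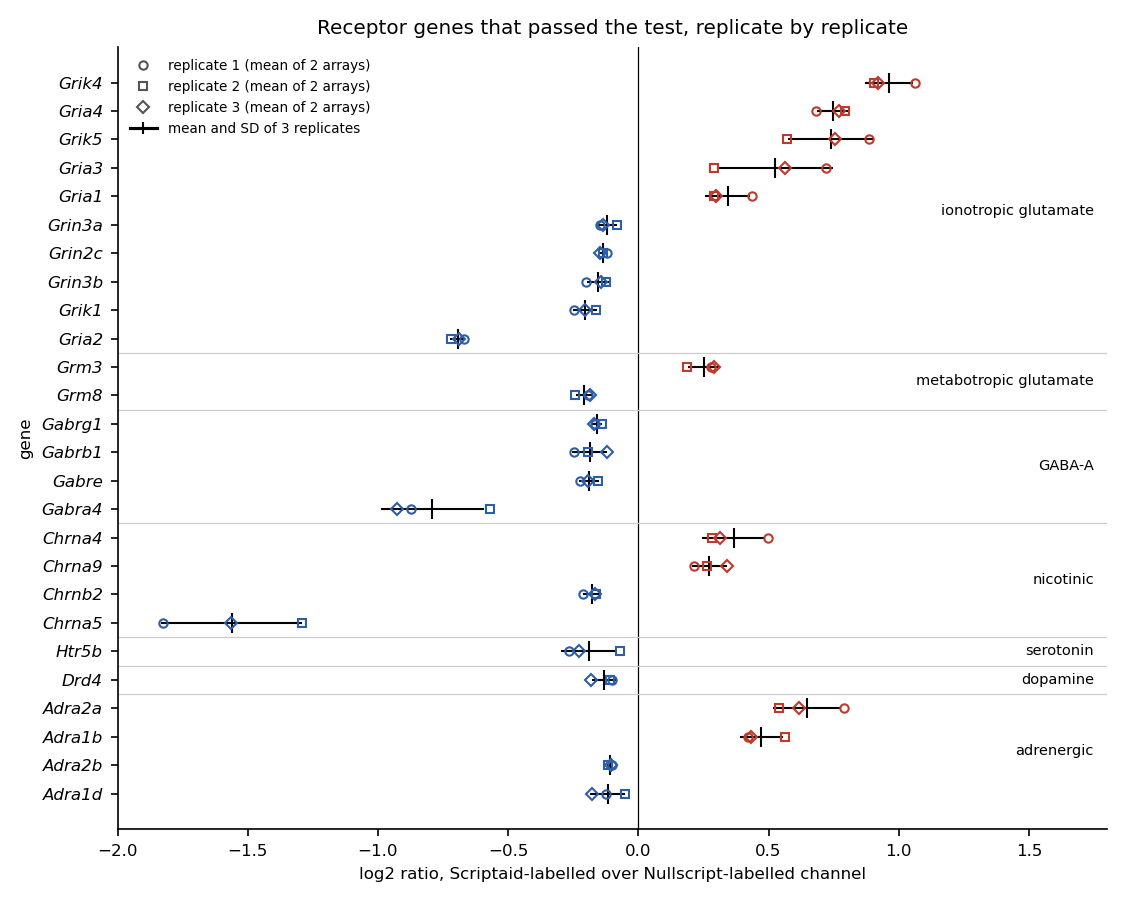
Log2 ratios of 26 of the 28 receptor genes that passed, by family, with a symbol for each replicate (mean of 2 arrays) and a bar for mean and SD. Every gene has its 3 replicates on one side of 0, from -1.82 in Chrna5 to 1.06 in Grik4.

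For genes with several probes, the probes of one gene often gave different ratios. Of the 28 genes that passed, 13 had 19 other probes in the test. Of these 19, 17 had the same sign as the brightest probe, 9 passed in the same direction, 1 passed in the opposite direction (Grin3a) and 9 did not pass, where 45.2% of all probes passed. The widest gaps among genes that passed were those of Gria2, Adra2a and Gria4. Of the genes that did not pass, 26 had 34 other probes, of which 4 were higher and 3 lower. Higher ones were in Adra1a (0.13), Gabra2 (0.12) and Htr2b (0.12), and the lower ones were in Adrb1, Chrm4 and Htr2c (-0.12). Of the genes described in full, Chrna5, Grik4, Grik5 and Gabra4 have 1 probe each, so no other probe can be set beside theirs. Which transcript each probe binds was not analysed here.

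**Figure D5:**
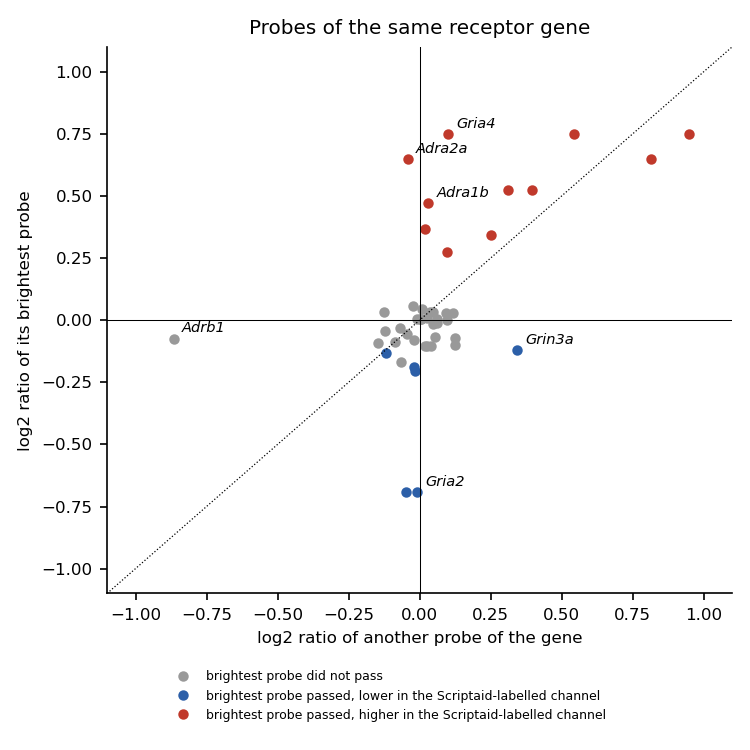
Log2 ratio of the brightest probe of a receptor gene against the log2 ratio of each of its other probes, with a dotted line where they are equal. Gria2 at -0.69 has other probes near 0, and Adrb1 has another probe at -0.87 beside a brightest probe near 0. Some genes are not drawn.

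Genes that work with these receptors were counted from lists. The share to set beside these counts is that of all genes, 22.5% higher and 23.7% lower. Of 43 scaffold and auxiliary subunit genes tested, 7 were higher and 15 lower, with a median log2 ratio of -0.048. Among them were Homer1 (-0.78) and Homer2 (0.53), which tether metabotropic glutamate receptors, and Grip1 (0.48), which binds AMPA subunits. Other probes had -0.55 to -0.12 for Homer1, -0.085 to 0.019 for Homer2 and 0.020 to 0.55 for Grip1. Of 26 genes of transmitter synthesis, packaging and breakdown, 6 were higher and 7 lower. Here Gch1 (-1.37), which makes the cofactor of catecholamine and serotonin synthesis, Abat (-1.01), which breaks down GABA, and Slc32a1 (-0.72), which loads GABA and glycine into vesicles, were lower. Other probes of Abat had only -0.10 to -0.053, while another probe of Gch1 had -1.63.

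Of 35 genes of G proteins and their effectors, 10 were higher and 13 lower. Gnaz (-1.27), an inhibitory alpha subunit, was lower, while Gna14 (0.85), an alpha subunit that acts on phospholipase C, Adcy4 (0.79), an adenylyl cyclase, and Grk2 (0.69), a kinase that silences active receptors, were higher. Of 20 related receptor genes outside the name patterns, 0 were higher and 6 were lower by limma, and 0 and 7 at an unadjusted p under 0.05. They were led by the histamine receptors Hrh3 (-0.99) and Hrh1 (-0.55) and by the adenosine receptors Adora1 (-0.35) and Adora2b (-0.18).

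Markers of cell types that explants of this stage could hold moved between the channels as well. Of 11 neuronal markers, 9 were lower and 1 was higher, with Nefm at -1.33, Stmn2 at -1.16, Map2 at -1.07 and Elavl4 at 1.29. Other probes of these genes had smaller ratios: -0.14 for Nefm, -0.19 for Stmn2, -0.18 to 0.025 for Map2 and 0.71 for Elavl4. Elsewhere in the list, another probe was farther from 0 for Elavl3 (-2.39 beside -0.16, which did not pass) and Nefl (-0.82 beside -0.42). Other probes had -0.78 to -0.064 for Snap25 (brightest -0.74) and -0.36 to -0.0051 for Syt1 (brightest -0.36). The mean level of the 11 markers was 9.04 to 9.29 (log2 intensity) over the replicates in the channel labelled Scriptaid, against 9.46 to 9.75 in the channel labelled Nullscript. All 11 were well above background on every array. Of 9 sympathoadrenal and enteric neural crest markers, 2 were lower (Chga at -0.49 and Phox2a at -0.16), with a mean level of 8.29 to 8.39 against 8.37 to 8.48. Of 8 glial markers, 2 were higher (Fabp7 at 0.54, Erbb3 at 0.12) and 1 was lower (Foxd3 at -0.17), with 9.78 to 9.86 against 9.69 to 9.82.

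Of the kidney lists, all 9 nephron progenitor markers (Crym at 1.32, Meox1 at 1.20) and all 8 stromal markers (Lum at 1.71, Tcf21 at 1.69) were higher, as were 7 of 8 endothelial markers (Icam2 at 1.47) and 6 of 9 ureteric bud markers (Elf5 at 1.22), of which 1 was lower (Cdh1 at -0.68). The mean level of the nephron progenitor markers was 11.87 to 11.96 in the channel labelled Scriptaid, against 11.02 to 11.12 in the channel labelled Nullscript, and that of the stromal markers 12.38 to 12.43 against 11.46 to 11.68. Endothelial markers averaged 10.98 to 11.04 against 10.21 to 10.44, and ureteric bud markers 11.36 to 11.45 against 11.01 to 11.07. Smooth muscle markers gave 1 higher and 4 lower of 8, skeletal muscle markers 4 lower of 7, macrophage markers 2 higher and 2 lower of 6, and red blood cell markers 2 lower of 6. The part of these cell types in the receptor ratios was not tested.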

How the data were processed

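Scanner files deposited for the 6 arrays give mean and background intensity per spot in both channels, and a log10 ratio of Cy5 over Cy3, from Agilent Feature Extraction 9.1.3.1 per the file headers. The authors' series table holds the same log10 ratios, with Scriptaid-labelled signal on top and differences of at most 4.82e-06. Drug channels follow each array's own source and dye labels, although the series text mentions a swap on 2 of 4 arrays.

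With limma 3.58.1 in R 4.3.3, normexp (offset 50, which pulls dim ratios towards 0) and loess within arrays were applied, control spots had weight 0, and outlier spots were dropped. Probes had to be well above background on 3 of 6 arrays in one drug's channel. The brightest probe stood for a gene, and both arrays of a replicate were averaged before lmFit and eBayes tested the 3 replicates against 0, with Benjamini-Hochberg adjustment. Levels are log2 intensities after Aquantile scaling. Only 3 replicates limit the precision. The fit was tested on simulated replicates drawn independently around known ratios. These held no slide, dye or pairing effects, so the simulation cannot speak to those.

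Of 41174 probes, 22951 were named by accession, 6659 by current and 3109 by older symbol in the RefSeq table (GRCm38.p6), which also gave gene order. Receptor genes keep the array's names. Same-numbered arrays pair by the labels, and their deviations correlated at 0.61, 0.13 and 0.012 for replicates 1 to 3.

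The members, lists and tests were chosen with earlier results of these data known. Values per replicate are given for genes past the threshold with an absolute log2 ratio of at least 0.5 and for the top 2 such genes of a family, or its brightest gene where none passed, and up to 4 genes past the threshold are named per list. Some genes that these rules take are not reported here. Other probes and neighbouring genes were named after their values were seen. Alternatives covered background correction, normalisation, filter, probe choice, dye orientation, slide, replicate block and leaving out a replicate.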

Additional observations from a re-analysis of the deposited data

Results flagged for a closer look

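The ratio differed between the 2 dye orientations for 2 of the 95 receptor genes tested (limma on 6 arrays with the replicate as a block, adjusted p under 0.05), which was the case for 5.38% of all genes. Gabrg3 had a mean log2 ratio of -0.19 where Scriptaid carried Cy5 (3 arrays) and of 0.19 where it carried Cy3 (3 arrays), a difference of -0.37 (adjusted p = 0.0498). Htr4 had 0.12 and -0.15 on the same sets of arrays, a difference of 0.28 (adjusted p = 0.0284). In both genes the orientations had opposite signs, and neither gene passed the test of the drugs. None of the 28 receptor genes that passed had a dye term past the threshold.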

How the results depend on the processing

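Of the 28 receptor genes that passed, 14 kept their call and direction under all 17 alternatives (among them Adra1b, Adra2a, Chrna5, Chrnb2, Gabra4, Gria1, Gria2, Gria3, Gria4, Grik1, Grik4, Grik5 and Grm8). The other 14 had absolute log2 ratios of at most 0.37. With each replicate left out in turn, the count of higher receptor genes stayed at 10 and that of lower ones ranged from 8 to 18, with 8 lower without replicate 3, the only replicate on its slide (the cause was not tested). Over all genes the same omissions gave 4312 to 5683 higher and 3996 to 5694 lower. With the slide as a block, 10 receptor genes were higher and 10 lower (18.9% and 18.6% of all genes). With the replicate block over 6 arrays and a dye term, 10 were higher and 21 lower. The share of all genes under that fit is not given here, so these counts cannot be set against it. Chrna4 lost its call on processed signals (0.054), with offset 0 (0.023) and in the series table (0.054), because another of its probes was the brightest there. Glra2 changed sign with median centring (0.017) and on arrays with Scriptaid in Cy5 only (0.023), Chrm4 with median centring (0.0093), and Grin3a with the mean over probes (0.11). For Grin3a the second probe shows the cause, and for Glra2 and Chrm4 the cause was not tested. The median over all genes moved by under 0.05 under every setting. Signal over background limits the size of dim ratios: on processed signals Chrna5 had -2.07 and Gabra4 -0.96. The counts on processed signals were 9 higher and 20 lower of 95 receptor genes, where 5722 were higher and 6764 lower of all 26489 genes. Chrm1 (-0.22), Gabrd (-0.20) and Htr3b (-0.57) passed there but not with normexp at offset 50.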
